A study of Mus musculus with 12 samples.

Results

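The 10 genes described here, Ets1, Ets2, Erg, Fli1, Spi1, Etv6, Elf1, Elk3, Gabpa and Elf4, encode transcription factors of the Ets family that act in blood and endothelium. They were chosen by name, and all 10 were matched by Ensembl identifier among the 32121 genes of a count table of mouse spleen messenger RNA. The tissue came from 3 SB animals, of genotype VEC-Cre, SB Transposase and onc2 on C57BL/6, and from 3 WT control animals of the same strain, with 2 pieces sequenced from each spleen. SB is the Sleeping Beauty system, in which a transposase moves a DNA transposon, here onc2, to other places in the genome. VEC-Cre is a Cre recombinase under the promoter of VE-cadherin, an endothelial gene that is also active in the embryonic endothelium from which blood stem cells arise. The study asked how clonal each spleen was as a whole, so the level of each factor is given per animal and per piece. Age and treatment are not given in the labels, and the controls carry none of the 3 alleles, so effects of the single alleles cannot be told apart.

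Ets factors share a DNA-binding domain that reads a short GGAA core, and family members that read almost the same sites divide the work by cell type and by partner. In blood, Spi1 (PU.1) leads the macrophage and granulocyte programme, Ets1 is a factor of lymphocytes, Fli1 and Erg act in stem cells, megakaryocytes and endothelium, and Etv6 is a repressor that blood stem cells and platelet formation need. Several of these genes are known sites of retroviral insertion or chromosome fusion in leukaemia: Fli1 and Spi1 in virus-induced mouse erythroleukaemia, and ETV6, ERG and FLI1 in human fusions.

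The 12 libraries held 14320833 to 22031026 counts. Levels are given as CPM, counts scaled to a common library size by the TMM method; values for a whole animal were computed from the summed counts of both pieces. The cellular make-up of the spleens differed between the genotypes. The summed level of 6 B cell markers was 108, 96.2 and 51.3 CPM in SB animals 1, 2 and 3, against 6396 to 7194 CPM in the control animals, and that of 6 T cell markers was 32.8, 104 and 22.0 CPM against 642 to 744 CPM. Megakaryocyte markers summed to 3093, 1030 and 4170 CPM in the SB animals and to 231 to 567 CPM in the control animals. These 6 markers did not move alike: 3 passed as higher in SB animals and 0 as lower. Itga2b alone had 2324, 251 and 3189 CPM in SB animals 1 to 3. Ppbp had 201, 442 and 30.6 CPM in SB animals 1 to 3, against 83.6 to 226 CPM in control animals. Gp6 had 0.198, 17.2 and 17.4 CPM, against 5.79 to 13.5 CPM. Erythroid markers summed to 946, 6844 and 1490 CPM in SB animals 1 to 3 and to 363 to 1180 CPM in the control animals. These 6 did not move alike either: 2 passed as higher in SB animals and 0 as lower. Slc4a1 alone had 479, 4477 and 64.1 CPM in SB animals 1 to 3, against 231 to 757 CPM in control animals. Red pulp macrophage markers summed to 258, 4929 and 888 CPM, against 1071 to 1157 CPM, so only SB animal 2 was above the controls. The 6 endothelial markers summed to 517 to 776 CPM in SB and 526 to 582 CPM in control animals, but did not move alike: 2 passed as higher in SB animals and 1 as lower. Pecam1 had 141 ± 24.3 CPM in SB and 314 ± 13.8 CPM in control animals, and Stab2 had 160 ± 14.6 CPM in SB and 75.2 ± 6.07 CPM in control animals (SD, n = 3 each). Xist, transcribed in female cells, had 2265, 1001 and 1.67 CPM in SB animals 1, 2 and 3 and 1.49 to 2.44 CPM in the control animals, so sex was unequal between the groups. In these bulk samples fewer cells of a type and less RNA per cell cannot be told apart, and the part of cell make-up or sex in any result below was not tested.

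None of the 10 factors differed between SB and control animals as groups (edgeR quasi-likelihood test on 3 against 3 animals, Benjamini-Hochberg adjusted p under 0.05), while 18.3% of the 17328 genes tested did. At an unadjusted p under 0.05 there were 4, namely Ets2, Erg, Etv6 and Elf4, beside 6167 of the 17328 genes. The same 4 were the members whose 6 SB libraries did not overlap the 6 control libraries. Of all genes tested, 29.6% showed no such overlap. DESeq2 called 2 members, Erg and Etv6, beside 5546 of all genes, and gave no p-value for Ets1. Run on the single libraries with the animal as a random effect, limma-voom called 3, Erg, Etv6 and Elf4, beside 3989 of all genes. The edgeR test called 3178 of all genes. The median log2 change of the 10 factors was 0.113, beside 0.110 for all genes tested. The SB spleens differed widely among themselves: the highest SB animal exceeded the lowest by a median of 2.94 times over the 10 factors, beside 2.14 times over all genes, whereas among control animals the medians were 1.09 and 1.17 times.

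**Figure D1:**
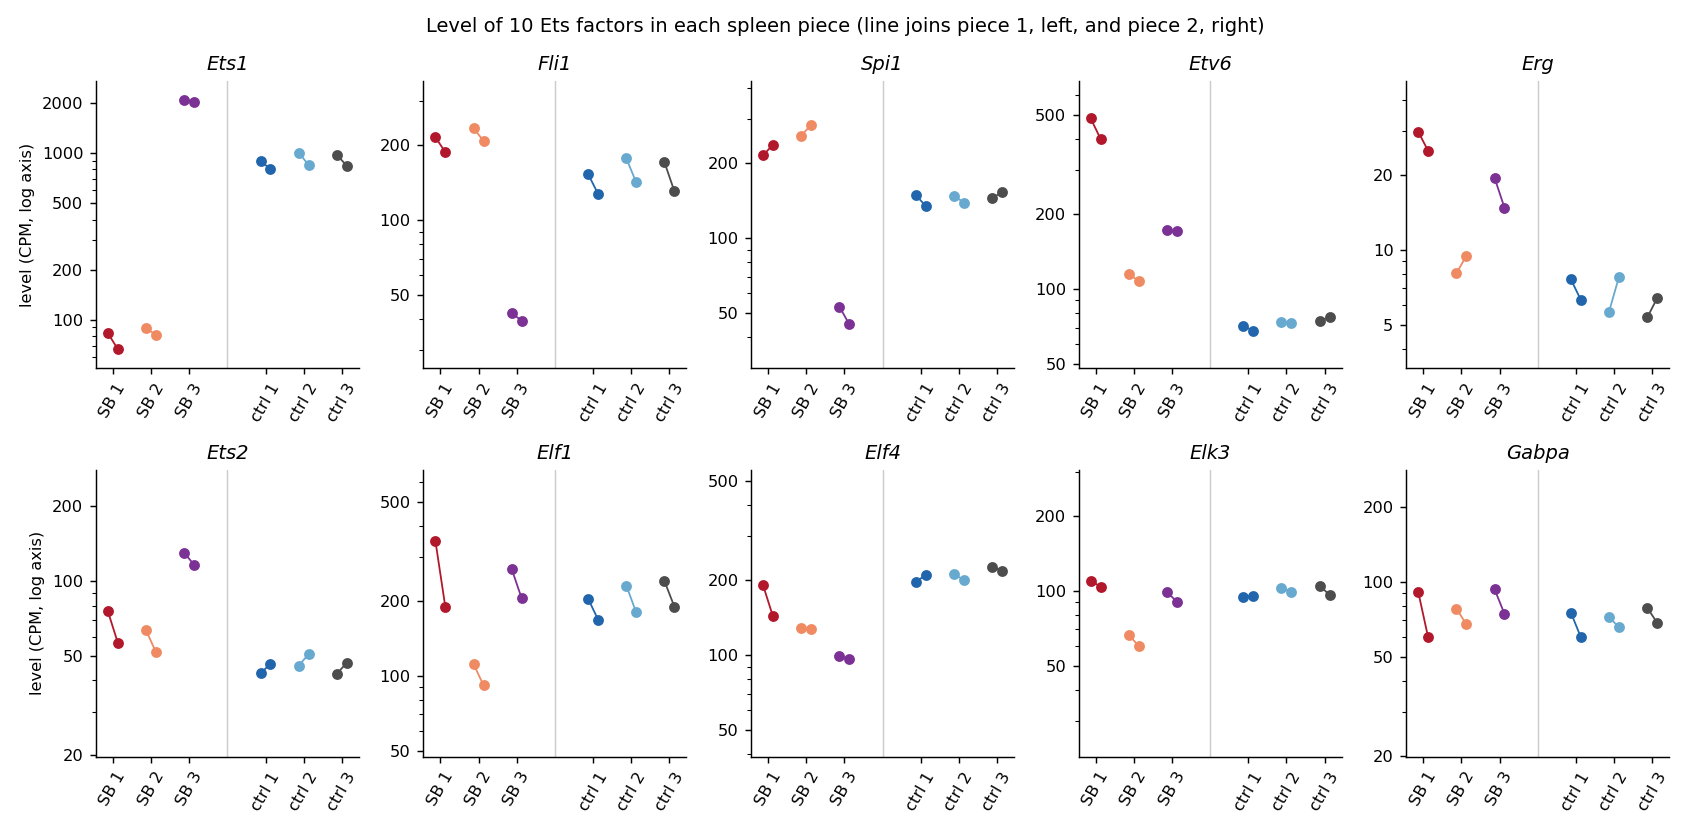
CPM of each of the 10 factors in each library on log axes that each span their own range. SB animals are on the left and control animals on the right of each panel, and a line joins piece 1 and piece 2 of a spleen. For Ets1, Fli1 and Spi1 the pieces of a spleen lie close together, and SB animal 3 lies on the other side of the controls from SB animals 1 and 2.

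Ets1, which in lymphocytes is needed for T cell function and restrains the maturation of B cells into plasma cells, varied most. It had 83.2 and 66.7 CPM in the pieces of SB animal 1, 89.6 and 80.8 CPM in SB animal 2 and 2090 and 2029 CPM in SB animal 3, against 897 and 804, 1011 and 849, and 980 and 841 CPM in the 3 control animals. SB animals 1 and 2 thus lay far below every control library and SB animal 3 far above. Within the SB group this split, which Fli1 and Spi1 shared in the other direction, ran the same way as sex: Xist was high in SB animals 1 and 2 and low in SB animal 3, so sex and animal cannot be told apart there. The control animals, with low Xist like SB animal 3, lay between. The highest SB animal exceeded the lowest by 27.6 times, and the highest control animal exceeded the lowest by 1.09 times. The mean over 3 SB animals, 751 ± 1162 CPM (SD), describes none of them and stood beside 891 ± 43.3 CPM in the 3 control animals. The log2 change between the groups was -0.25 (SE 1.25, adjusted p = 0.905, edgeR quasi-likelihood test), and without SB animal 3 it was -3.47 (adjusted p = 0.00296). With any other single animal left out Ets1 did not pass (adjusted p 0.869 to 0.943 in edgeR's test).

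The high Ets1 of SB animal 3 stood beside low markers of T and B cells, the lineages in which Ets1 is best known. That spleen had 22.0 CPM of the 6 T cell markers and 51.3 CPM of the 6 B cell markers, the lowest sums of all 6 animals. No marker of either list was at 0. Among 11150 genes of at least 5 CPM, Faah, a hydrolase of fatty acid amides, was among the 3 whose profiles over the 12 libraries were most like that of Ets1, with a root-mean-square log2 difference of 0.368 after centring. Faah had 9.24, 10.8 and 163 CPM in SB animals 1 to 3 and 77.8 ± 4.30 CPM (SD, n = 3) in control animals.

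Fli1, a factor of megakaryocytes, early erythroid cells and endothelium, followed the opposite order. Its level was 215 and 188 CPM in SB animal 1, 234 and 208 CPM in SB animal 2 and 42.5 and 39.4 CPM in SB animal 3, against 128 to 177 CPM in the control libraries. All 4 libraries of SB animals 1 and 2 were above every control library, and both of SB animal 3 were below. The group means, 155 ± 98.3 CPM in SB and 149 ± 10.1 CPM in control animals (SD, n = 3 each), nearly coincide, with a log2 change of 0.05 (SE 0.57, adjusted p = 0.958, edgeR quasi-likelihood test).

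Spi1, the master regulator of macrophages and granulocytes, was placed like Fli1. It had 215 and 238 CPM in SB animal 1, 258 and 285 CPM in SB animal 2 and 53.1 and 45.1 CPM in SB animal 3, against 135 to 153 CPM in the control libraries. Again 4 SB libraries were above all controls and 2 were below. The log2 change between groups was 0.36 (SE 0.57, adjusted p = 0.688, edgeR quasi-likelihood test), and without SB animal 3 it was 0.81 (adjusted p = 0.0264). With any other single animal left out Spi1 did not pass (adjusted p 0.792 to 0.953 in edgeR's test). Spi1 and Fli1 shared their most similar gene, Rbpj, the DNA-binding factor of Notch signalling, which had 56.4, 79.6 and 15.5 CPM in SB animals 1 to 3 and 44.0 ± 2.42 CPM (SD, n = 3) in control animals.

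Ets1 and Fli1 are neighbours. On chromosome 9 of the GRCm38 build Ets1 runs on the plus strand from 32636221 to 32757820 and Fli1 on the minus strand from 32422204 to 32542861, so that their starts face away from each other 93.4 kb apart. Within each library, the log2 ratio of Ets1 to Fli1, with both levels divided by exon length, was -2.65 (piece 1) and -2.77 (piece 2) for SB animal 1, -2.67 and -2.65 for SB animal 2 and 4.34 and 4.41 for SB animal 3, against 1.23 to 1.40 in the control libraries. The ratio was therefore alike in SB animals 1 and 2, below all controls, and above all controls in SB animal 3. The log2 ratio of Spi1 to Fli1, which lie on different chromosomes, ranged only from 0.37 to 0.83 in SB libraries and from 0.12 to 0.60 in control libraries. Ets2 and Erg form the other neighbouring pair, with starts 115 kb apart on chromosome 16. The log2 ratio of Ets2 to Erg per kb was 0.61 (piece 1) and 0.45 (piece 2) for SB animal 1, 2.25 and 1.72 for SB animal 2 and 2.01 and 2.24 for SB animal 3, against 1.75 to 2.29 in the control libraries. Here only the libraries of SB animals 1 and 2 included values outside the control range, and for SB animal 2 that was piece 2 alone.

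**Figure D2:**
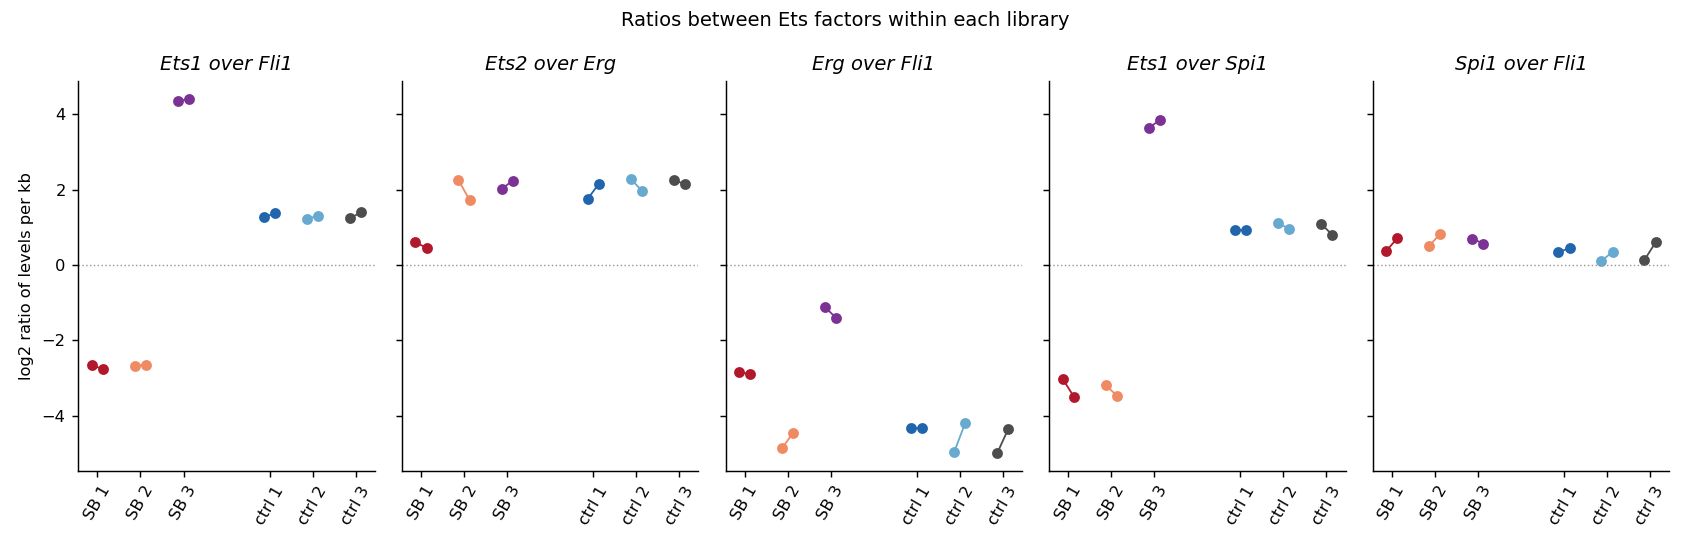
log2 ratio of the levels per kb of 2 factors in each library, 1 panel per pair, with SB animals left of control animals and a line joining the pieces of a spleen. The Ets1 to Fli1 ratio runs from -2.77 to 4.41 across the SB libraries and stays between 1.23 and 1.40 in the controls, while the Spi1 to Fli1 ratio stays between 0.12 and 0.83 in all 12.

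Etv6, Erg and Ets2 were the factors whose libraries were higher in every SB animal than in every control. The RefSeq promoter windows of these 3, from 250 bases before to 50 bases after a gene start, are shown to compare their Ets sites, in the 5′ to 3′ direction of the gene on GRCm38.p6, with the core GGAA or its reverse complement TTCC in capitals. The Etv6 window lies at chr6:134035450-134035749 on the plus strand, the Ets2 window at chr16:95702157-95702456 on the plus strand, and the window of the first of 3 listed Erg starts at chr16:95586544-95586843 on the minus strand.
Etv6: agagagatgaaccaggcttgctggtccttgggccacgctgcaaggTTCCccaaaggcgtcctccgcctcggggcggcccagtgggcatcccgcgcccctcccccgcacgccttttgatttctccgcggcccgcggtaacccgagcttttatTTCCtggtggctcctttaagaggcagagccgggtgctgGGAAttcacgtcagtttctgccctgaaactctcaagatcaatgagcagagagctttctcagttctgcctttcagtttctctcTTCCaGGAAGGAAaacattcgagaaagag
Erg: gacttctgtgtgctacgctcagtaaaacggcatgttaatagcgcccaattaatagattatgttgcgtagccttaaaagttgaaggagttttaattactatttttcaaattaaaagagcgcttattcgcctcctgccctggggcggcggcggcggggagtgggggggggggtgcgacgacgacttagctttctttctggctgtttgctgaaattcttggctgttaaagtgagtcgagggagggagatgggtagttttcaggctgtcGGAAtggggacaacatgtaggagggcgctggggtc
Ets2: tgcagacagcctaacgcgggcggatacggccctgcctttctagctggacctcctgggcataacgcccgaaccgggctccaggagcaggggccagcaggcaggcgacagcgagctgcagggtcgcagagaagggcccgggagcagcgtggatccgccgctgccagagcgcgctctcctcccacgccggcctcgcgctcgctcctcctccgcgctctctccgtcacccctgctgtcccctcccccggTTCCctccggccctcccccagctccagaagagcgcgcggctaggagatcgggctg
The Etv6 window held 6 copies of the core, counted on both strands, and the Ets2 window held 1. The printed Erg window held 1, and the windows of the other 2 Erg starts held 4 and 2. The median over all 32851 RefSeq windows of this length was 3 copies, and 96.0% held at least 1. The longer Ets consensus CCGGAAGT, which contains the core, was searched on both strands too. It occurred in 0 of the 11 windows listed for 7 of the factors and in 3.89% of all windows; these letters in this window are a description and say nothing of binding.

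Etv6, the repressor needed by blood stem cells, had 485 and 401 CPM in SB animal 1, 115 and 108 CPM in SB animal 2 and 173 and 171 CPM in SB animal 3, against 67.9 to 77.0 CPM in the control libraries. Every SB library was above every control library, and SB animal 1 stood apart from the other 2 SB animals. The log2 change between groups was 1.76 (SE 0.52, adjusted p = 0.0644, edgeR quasi-likelihood test). It passed the threshold without SB animal 1 (0.98, adjusted p = 0.0351) and without SB animal 2 (2.11, adjusted p = 0.0175). Without SB animal 3 (adjusted p = 0.0802) or any 1 control (adjusted p 0.197 to 0.2) it did not, in edgeR's test. The most similar profile was that of Prdx6, a peroxiredoxin, with 533, 172 and 247 CPM in SB animals 1 to 3 and 106 ± 4.76 CPM (SD, n = 3) in control animals.

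Erg, which sustains blood stem cells and megakaryocytes, was the least abundant of the 10 per kb of exon. It had 29.8 and 25.0 CPM in SB animal 1, 8.04 and 9.46 CPM in SB animal 2 and 19.5 and 14.8 CPM in SB animal 3, against 5.35 to 7.79 CPM in the control libraries. SB animals 1 and 3 were well clear of the controls and SB animal 2 only just so. The log2 change was 1.49 (SE 0.44, adjusted p = 0.0644, edgeR quasi-likelihood test), and it passed without SB animal 2 (1.81, adjusted p = 0.00902). With any other single animal left out Erg did not pass (adjusted p 0.0861 to 0.221 in edgeR's test). Slc19a1, the reduced folate carrier, was the gene most like Erg, with 80.6, 28.1 and 60.9 CPM in SB animals 1 to 3 and 18.5 ± 0.87 CPM (SD, n = 3) in control animals.

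Ets2, a factor that Ras and MAP kinase signalling activates by phosphorylation, was highest in SB animal 3. Its level was 75.9 and 56.7 CPM in SB animal 1, 63.7 and 52.0 CPM in SB animal 2 and 130 and 117 CPM in SB animal 3, against 42.5 to 51.0 CPM in the control libraries. The lowest SB library lay just above the highest control library. The log2 change was 0.87 (SE 0.31, adjusted p = 0.107, edgeR quasi-likelihood test) and 1.08 without SB animal 2 (adjusted p = 0.0381). With any other single animal left out Ets2 did not pass (adjusted p 0.0902 to 0.291 in edgeR's test). Cpt2, an enzyme of mitochondrial fatty acid import, was the most similar gene, at 37.3, 32.8 and 83.9 CPM in SB animals 1 to 3 and 27.0 ± 1.73 CPM (SD, n = 3) in control animals.

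Elf4, a factor of natural killer cells that also governs the resting state of blood stem cells, was lower in every SB library than in every control library. It had 191 and 143 CPM in SB animal 1, 129 and 127 CPM in SB animal 2 and 99.6 and 96.2 CPM in SB animal 3, against 198 to 226 CPM in the control libraries. The log2 change was -0.66 (SE 0.22, adjusted p = 0.0912, edgeR quasi-likelihood test) and -0.88 without SB animal 1 (adjusted p = 0.0229). With any other single animal left out Elf4 did not pass (adjusted p 0.108 to 0.257 in edgeR's test). Elf4 lies on the X chromosome, and its lowest SB level was in SB animal 3, the SB spleen with 1.67 CPM of Xist. The control spleens, with Xist between 1.49 and 2.44 CPM, had the highest Elf4 levels.

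Elf1, a broadly active factor of T cell and endothelial genes, had 347 and 188 CPM in SB animal 1, 111 and 91.4 CPM in SB animal 2 and 267.3 and 204 CPM in SB animal 3, against 168 to 240 CPM in the control libraries. SB animal 2 alone lay wholly outside the control range, below it. Elk3, a repressor that works with serum response factor, had 104 to 110 CPM in SB animal 1, 59.9 and 66.4 CPM in SB animal 2 and 90.2 and 98.8 CPM in SB animal 3, against 94.4 to 105 CPM in the control libraries. Again both libraries of SB animal 2 were below all controls. Gabpa, the DNA-binding subunit of the widely expressed factor GABP, had 59.8 to 93.3 CPM in the SB libraries and 59.9 to 78.7 CPM in the control libraries, and these ranges overlapped. Between the groups the log2 changes were 0.03 (SE 0.37, adjusted p = 0.956) for Elf1, -0.14 (SE 0.22, adjusted p = 0.683) for Elk3 and 0.17 (SE 0.14, adjusted p = 0.417) for Gabpa in edgeR's test. Exons of Elf1, Elk3 and Gabpa overlap those of Wbp4, Cdk17 and Atp5j on the opposite strand over 327, 316 and 397 bases. The libraries carry no strand, so counts there cannot be told apart.

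Differences among the spleens were then tested with the spread between pieces of a spleen as the error, so these p-values compare these spleens and not the genotypes. The 3 SB animals differed in 9 of the 10 factors, beside 70.8% of the 17758 genes tested, with Gabpa the exception (adjusted p = 0.572, edgeR quasi-likelihood test). The 3 control animals differed in 0 of the 10, beside 0.557% of all genes. At an unadjusted p under 0.05 it was 0 of the 10 too, beside 1201 of the 17758 genes. Over the SB animals Gabpa varied least, with a coefficient of variation of 8.62%, beside 5.35% over the control animals. For Etv6 the values in SB and control animals were 73.3% and 4.17%, and for Spi1 64.4% and 2.43%.

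Each SB animal was also set against the same 3 control animals, which these 3 comparisons therefore share. In SB animal 1, 5 factors were higher and 2 lower, where 33.4% and 34.5% of all genes were higher and lower. In SB animal 2, 4 were higher and 4 lower (30.6% and 28.9% of all genes), and in SB animal 3, 4 were higher and 3 lower (32.3% and 33.4%). The number of factors that moved was thus not far from what all genes showed. The same 7 factors passed in SB animals 1 and 3, with Ets1, Fli1 and Spi1 in opposite directions. Ets1 had log2 changes of -3.60 (SE 0.15), -3.40 (SE 0.15) and 1.20 (SE 0.11) in SB animals 1, 2 and 3, all with adjusted p of at most 1e-06 in edgeR's test. Fli1 changed by 0.41 (SE 0.13), 0.55 (SE 0.13) and -1.88 (SE 0.15), and Spi1 by 0.63 (SE 0.10), 0.90 (SE 0.09) and -1.56 (SE 0.11). For both, the adjusted p in SB animal 1, 0.0131 for Fli1 and 7.9e-05 for Spi1 in edgeR's test, was the weakest of the 3.

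Etv6 passed in all 3 SB animals, with log2 changes of 2.59 (SE 0.09), 0.60 (SE 0.09) and 1.23 (SE 0.09). Erg changed by 2.06 (SE 0.16) and 1.40 (SE 0.17) in SB animals 1 and 3. In SB animal 2 its change of 0.43 (SE 0.19) did not pass (adjusted p = 0.0641, edgeR quasi-likelihood test). Ets2 passed in all 3, at 0.51, 0.32 and 1.42 (SE 0.12, 0.13 and 0.12), as did Elf4, at -0.35, -0.73 and -1.11 (SE 0.11, 0.11 and 0.12). Elf1 and Elk3 passed in SB animal 2 alone, at -1.0 (SE 0.23) and -0.65 (SE 0.09), and Gabpa in none. Between SB animals 1 and 2, Ets1, Fli1, Spi1, Ets2 and Gabpa did not pass, with log2 differences (animal 1 minus animal 2) of -0.19, -0.14, -0.28, 0.19 and 0.05 and SE of 0.15, 0.16, 0.12, 0.16 and 0.20. Etv6 and Erg did differ between these animals, by 1.98 (SE 0.12) and 1.63 (SE 0.22), both higher in SB animal 1.

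**Figure D3:**
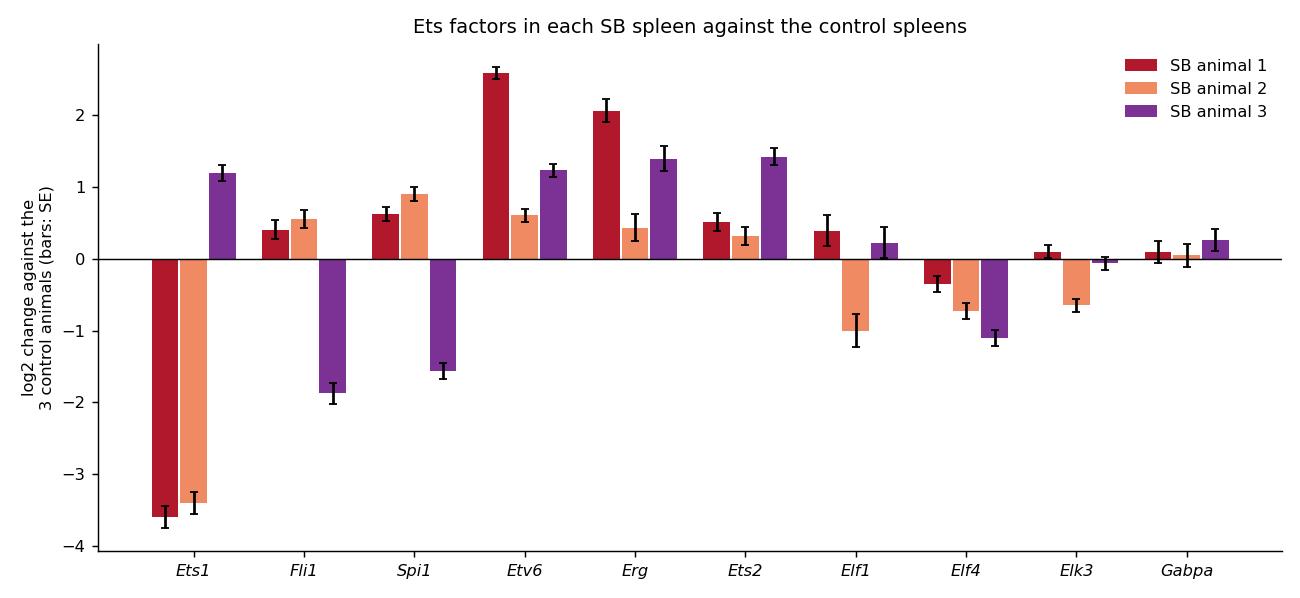
log2 change of each factor in each SB animal against the 3 control animals, with bars for the standard error from the spread between pieces. Ets1 lies at -3.60 and -3.40 in SB animals 1 and 2 and at 1.20 in SB animal 3, while Fli1 and Spi1 have the reverse signs, and Etv6 is above 0 in all 3.

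Levels of different genes were compared per kilobase of exon. In the control spleens the order by mean was Ets1 at 105 ± 5.10 CPM per kb (SD, n = 3 animals), Spi1 at 53.2 ± 1.29, Fli1 at 42.9 ± 2.89, Elf4 at 34.0 ± 1.63, Elf1 at 29.8 ± 2.45, Elk3 at 21.6 ± 0.72, Gabpa at 12.2 ± 0.65, Etv6 at 12.1 ± 0.50, Ets2 at 7.90 ± 0.36 and Erg at 1.85 ± 0.17. Animal ranges of neighbours in this order overlapped for Gabpa and Etv6 alone. In the SB group the ranges of all neighbours overlapped except those of Gabpa and Erg, since the animals had no common order. Spi1 led in SB animals 1 and 2, at 83.9 and 102 CPM per kb, and was followed by Etv6 at 75.0 in SB animal 1 and by Fli1 at 62.9 in SB animal 2. Ets1 led in SB animal 3 at 247 CPM per kb, followed by Elf1 at 35.7.

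As a share of the summed level per kb of the 10 factors, Ets1 made up 2.55%, 3.72% and 58.6% in SB animals 1 to 3 and 32.5% to 33.3% in control animals. The share of Spi1 was 23.9%, 38.1% and 4.40% in the SB animals and 16.2% to 17.1% in the control animals. Etv6 held 21.3% in SB animal 1 and 6.92% in each of SB animals 2 and 3, against 3.72% to 3.80% in control animals. The sum itself was 351, 268 and 421 CPM per kb in SB animals and 305 to 330 CPM per kb in control animals.

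**Figure D4:**
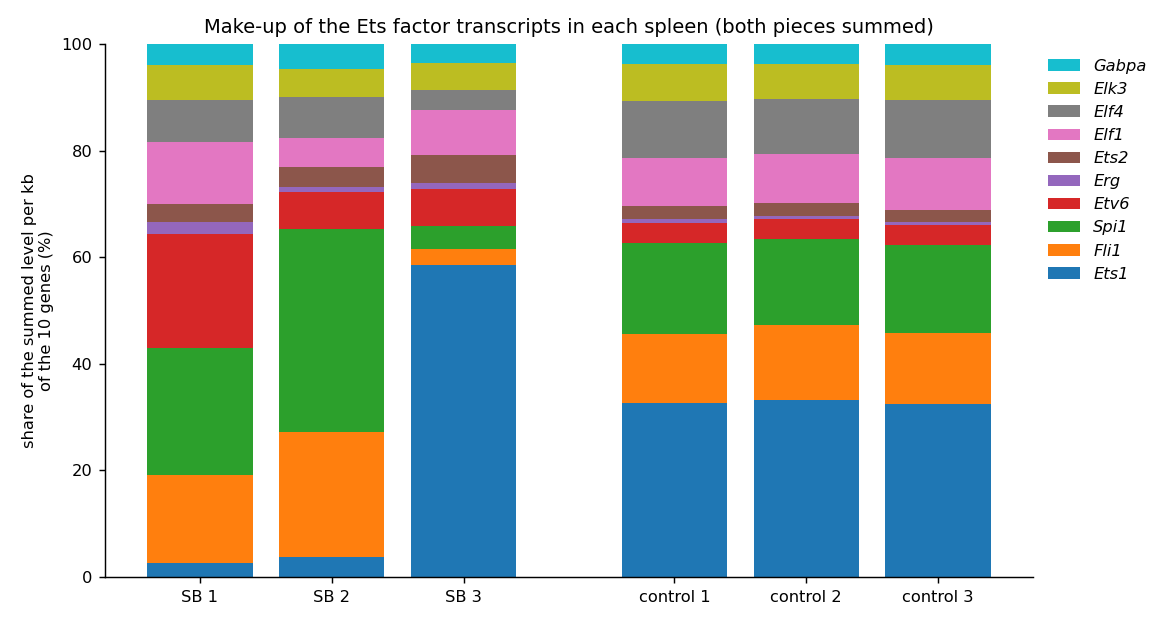
Share of each factor in the summed level per kb of the 10, in percent, for each animal with both pieces summed, SB animals on the left and control animals on the right. The 3 control columns are alike, with Ets1 at 32.5% to 33.3%, and the 3 SB columns differ, with Ets1 at 2.55%, 3.72% and 58.6%.

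The 2 pieces of a spleen bear on whether it was uniform. Piece 2 was set against piece 1 with the animal as a block. Over all 6 animals, 4 of the 10 factors were lower in piece 2, beside 11.0% of the 16787 genes tested in either direction. Elf1 had a log2 difference of -0.43 (SE 0.07, adjusted p = 0.0138), Gabpa of -0.30 (SE 0.06, adjusted p = 0.0175), Fli1 of -0.24 (SE 0.05, adjusted p = 0.0153) and Ets1 of -0.19 (SE 0.05, adjusted p = 0.0418) in edgeR's test. Each was lower in piece 2 in 6 of 6 animals. When SB animal 3, control animal 2 or control animal 3 was left out, or without the block, edgeR called 0 of all genes, and so none of the factors. Hbb-bs, an adult globin gene, was higher in piece 2 of all 3 control spleens, at 39290, 41670 and 23550 CPM against 29830, 15550 and 11460 CPM in piece 1. In SB animals 1 to 3 it had 1467, 25760 and 490 CPM in piece 2 against 1479, 22130 and 461 CPM in piece 1. Its part in the piece differences was not tested.

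Within the SB spleens 0 factors passed, beside 0.0119% of all genes. An unadjusted p under 0.05 in edgeR's test was reached by 5 factors, beside 3509 of the 16787 genes. Without SB animal 2, Elf1 and Gabpa passed, both lower in piece 2, and 725 genes in all against 2 with all animals. Within the control spleens Fli1 passed, at -0.33 (SE 0.06, adjusted p = 0.0149, edgeR quasi-likelihood test), beside 8.82% of all genes, and without control animal 2 or 3 neither it nor any other gene passed. The difference of the piece effects between genotypes passed for 0 factors, beside 1.23% of all genes. At an unadjusted p under 0.05 there was 1, Ets2, beside 2932 of the 16787 genes. The largest piece difference of any factor was that of Elf1 in SB animal 1, at -0.88 on the log2 scale, followed by that of Gabpa in the same spleen, at -0.61. For Ets1, whose highest SB animal exceeded the lowest by 27.6 times, the log2 difference between pieces did not exceed 0.319 in size in any SB spleen.

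**Figure D5:**
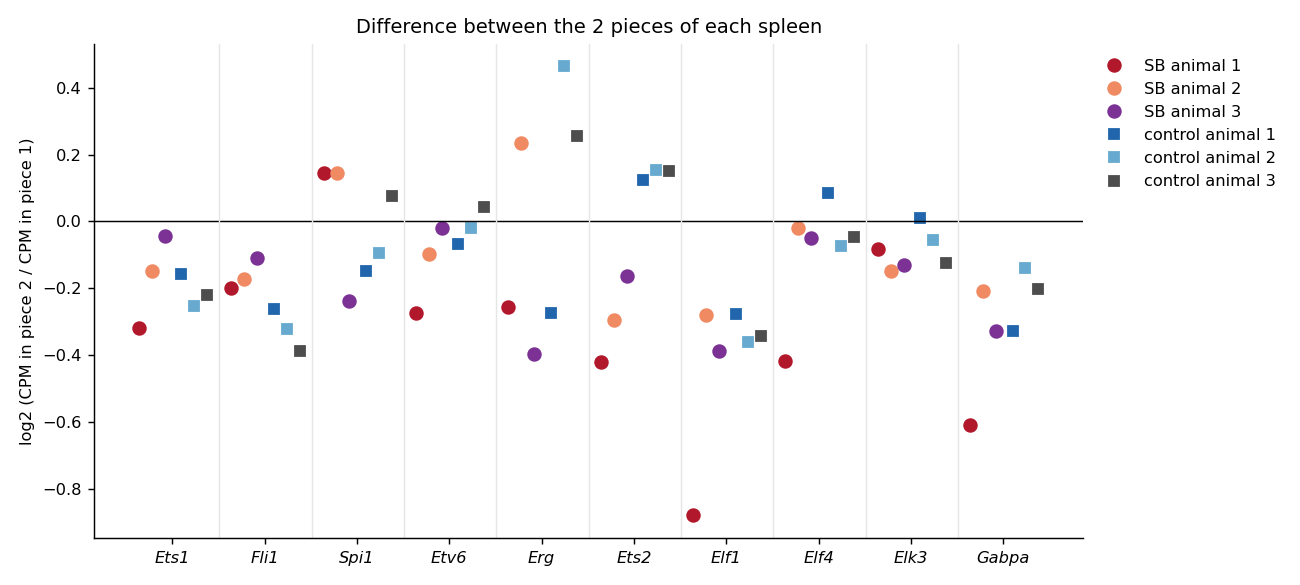
log2 of the CPM in piece 2 over that in piece 1 for each factor and animal, with SB animals as circles left of control animals as squares. Elf1, Gabpa, Fli1 and Ets1 lie below 0 in all 6 animals, and Ets2 lies below 0 in the 3 SB animals and above 0 in the 3 control animals.

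Of the other 16 mouse Ets genes, 11 passed the filter on low counts in the comparison of the groups. Of these 11, 0 rose and 3 fell in SB animals, where 18.3% of all genes passed in either direction. Spib, a close relative of Spi1 that acts in B cells, fell to 4.48, 9.26 and 6.51 CPM in SB animals 1 to 3, against 709 ± 50.6 CPM (SD, n = 3) in control animals. Its log2 change was -6.71 (SE 0.36, adjusted p = 0.000932, edgeR quasi-likelihood test), and it stood beside the low B cell marker sums of 51.3 to 108 CPM. Etv3, a repressor of growth genes in macrophages, had 44.9, 54.9 and 53.4 CPM in SB animals and 146 ± 10.9 CPM in control animals (log2 change -1.51, SE 0.15, adjusted p = 0.00434, edgeR quasi-likelihood test). Elk4, which like Elk3 works with serum response factor, had 159, 106 and 95.6 CPM in SB animals and 231 ± 6.65 CPM in control animals (log2 change -0.94, SE 0.22, adjusted p = 0.0374, edgeR quasi-likelihood test). Spib and Etv3 passed in all 6 fits that left out 1 animal, while Elk4 did not pass without SB animal 3 or without any 1 of the controls (adjusted p up to 0.14 in edgeR's test). Without SB animal 2, 1 of the 16 relatives rose, Etv4, and 6 fell. That fit called 6409 of all genes, against 3178 with all animals.

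The remaining relatives above 1 CPM in every animal did not pass between the groups. Etv5 had 6.43, 85.0 and 3.44 CPM in SB animals 1 to 3 and 11.8 ± 0.97 CPM in control animals. Spic, the factor of iron-recycling red pulp macrophages, had 12.9, 141 and 26.1 CPM in SB animals and 95.1 ± 8.01 CPM in control animals. Both were thus highest in SB animal 2, the spleen with 4929 CPM of red pulp macrophage markers, Spic among them. Elf2, Elk1 and Erf had 118 to 138, 12.7 to 15.2 and 20.7 to 46.5 CPM in SB animals and means of 108 ± 2.21, 14.3 ± 0.74 and 18.1 ± 0.56 CPM in control animals (SD, n = 3).

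Among 12 partner factors of Ets proteins, 5 rose in SB animals, 2 fell and 5 did not pass. Of all genes, 18.3% passed in either direction. The median log2 change of the 12 was 0.43 beside 0.110 for all genes. Tal1, which binds with Ets and GATA factors in stem and erythroid cells, had 441, 491 and 702 CPM in SB animals and 47.3 ± 23.9 CPM in control animals (log2 change 3.53, SE 0.47, adjusted p = 0.00837, edgeR quasi-likelihood test). Runx1, which binds cooperatively with Ets1 and other Ets proteins on lymphoid and myeloid promoters, had 155, 113 and 149 CPM in SB animals and 78.2 ± 3.08 CPM in control animals (log2 change 0.83, SE 0.17, adjusted p = 0.0249, edgeR quasi-likelihood test). Lmo2, the bridging protein of the Tal1 complex, rose by 0.88 (SE 0.19, adjusted p = 0.0279), and Irf4, the partner of Spi1 and Spib in B cells, had a log2 change of -3.72 (SE 0.90, adjusted p = 0.0394) in edgeR's test. The other 3 called were Gata1 and Gata2, higher, and Srf, lower. Gabpb1 and Gabpb2, the partner subunits of Gabpa, did not pass, with log2 changes of 0.03 and -0.20. Tal1 passed in 5 of the 6 fits that left out 1 animal and Runx1 and Lmo2 in 3, each failing where a control was left out. With control animal 2 left out 0 of the 12 passed, and with control animal 1 or 3 left out Tal1 alone did. Over all genes these fits called 818, 554 and 636 without control animals 1, 2 and 3, against 3178 with all animals. Irf4 also failed without SB animal 1 or 3.

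Genes known as Spi1 targets in myeloid cells passed in 0 of 10 between the groups (edgeR quasi-likelihood test), beside 18.3% of all genes. At an unadjusted p under 0.05 there were 2, Csf3r and Fcgr1, beside 6167 of 17328 genes. The median log2 change of the 10 was 1.50 beside 0.110 for all genes. DESeq2 called Csf3r and Fcgr1, beside 5546 of all genes, and limma-voom called Btk, lower, beside 3989. Against the shared controls, 3 were higher and 6 lower in SB animal 1, 9 higher and 1 lower in SB animal 2, and 1 higher and 6 lower in SB animal 3, beside 33.4% and 34.5%, 30.6% and 28.9%, and 32.3% and 33.4% of all genes. Csf1r, the macrophage growth factor receptor, had 52.7, 2021 and 98.3 CPM in SB animals 1 to 3 and 274 ± 18.3 CPM (SD, n = 3) in control animals. Csf3r, the granulocyte growth factor receptor, had 668, 86.8 and 24.1 CPM in SB animals and 19.9 ± 3.01 CPM in control animals. The macrophage receptor was highest in SB animal 2 and the granulocyte receptor in SB animal 1, while the difference in Spi1 between these animals did not pass (adjusted p = 0.071, edgeR quasi-likelihood test). The promyelocyte and neutrophil marker sums of SB animals 1 to 3 were 136, 2111 and 977 CPM, against 104 to 297 CPM in control animals, so the spleen with the highest Csf3r had the lowest of the 3. The red pulp macrophage marker sums were 258, 4929 and 888 CPM, against 1071 to 1157 CPM in control animals. The part of either cell type in the target levels was not tested.

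Of 6 genes known as Ets targets in megakaryocytes, 3 rose in SB animals and 0 fell, where 18.3% of all genes passed in either direction. The median log2 change of the 6 was 2.24 beside 0.110 for all genes. Itga2b, the platelet integrin, had 2324, 251 and 3189 CPM in SB animals and 130 ± 47.6 CPM in control animals (log2 change 3.89, SE 0.94, adjusted p = 0.0392, edgeR quasi-likelihood test). Pf4, a platelet chemokine, and Gp9, a subunit of the von Willebrand factor receptor, were the others, with log2 changes of 2.53 (SE 0.58, adjusted p = 0.0342) and 1.95 (SE 0.51, adjusted p = 0.0478) in edgeR's test. With SB animal 3 left out 0 of the 6 passed, in a fit that called 3311 of all genes. With any 1 control left out 0 passed as well, beside 554 to 818 of all genes. Without SB animal 1 Itga2b and Gp9 did not pass, and DESeq2 called 4, beside 5546 of all genes. In SB animal 3 low Fli1 stood beside the highest Itga2b and the highest megakaryocyte marker sum, 4170 CPM; all 3 genes that rose are themselves on that marker list.

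Of 12 genes known as Ets targets in endothelium, 3 rose in SB animals and 0 fell, where 18.3% of all genes passed in either direction. The median log2 change of the 12 was 1.09 beside 0.110 for all genes. Eng, a co-receptor of TGF-beta, had 223, 164 and 252 CPM in SB animals and 83.0 ± 3.03 CPM in control animals (log2 change 1.36, SE 0.20, adjusted p = 0.00971, edgeR quasi-likelihood test). Egfl7, a secreted endothelial protein, had a log2 change of 0.90 (SE 0.21, adjusted p = 0.0347), and Vwf, the platelet-binding glycoprotein, of 1.54 (SE 0.40, adjusted p = 0.0461), in edgeR's test. With any 1 control left out 0 of the 12 passed, in fits that called 554 to 818 of all genes. Without SB animal 3 Eng alone passed, and without SB animal 1 Vwf did not. Without SB animal 2 there were 6, and DESeq2 called 6 as well. These 2 fits called 6409 and 5546 of all genes, against 3178 in the main fit. Against the shared controls 8 of the 12 were higher and 1 lower in SB animal 1, 6 higher and 2 lower in SB animal 2, and 12 higher in SB animal 3, where 33.4% and 34.5%, 30.6% and 28.9%, and 32.3% and 33.4% of all genes were higher and lower. Egfl7, Cdh5, Tie1 and Kdr stand on both this list and that of the endothelial markers. Cdh5, VE-cadherin itself, had 53.0, 47.8 and 177 CPM in SB animals 1 to 3 and 35.4 ± 2.58 CPM in control animals, and did not pass between the groups (adjusted p = 0.123, edgeR quasi-likelihood test). In SB animal 3, where all 12 were higher, Fli1 was at its lowest and Ets1 and Ets2 at their highest.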

How the data were processed

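The authors deposited whole-number read counts per Ensembl gene and library, not normalised as judged from the values. Libraries were unstranded and poly-A selected from total RNA, per the labels' protocols. The submitters' processing notes list STAR 2.5.3a, limma and the build GRCm38 (mm10). How reads were assigned to genes, and with which annotation release, is not given in the sources used here. Symbols came from GENCODE mouse release 21 for 32026 of 32121 genes, and 0 columns belonged to no sample.

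Counts of both pieces were summed per animal for the genotype test (edgeR 4.0.16 in R 4.3.3: TMM, filterByExpr, robust quasi-likelihood fit, two-sided, Benjamini-Hochberg adjustment over all genes tested). Pieces were tested on the 12 libraries with the animal, named in both titles, as a block, and animals with 1 coefficient each. The contrasts of single SB animals were added after the values were seen. Standard errors came from the F statistic. The control sections given as A and B are pieces 1 and 2 by their labels. The code was tested on simulated data. DESeq2 1.42.0, limma 3.58.1, other normalisation and filters, single pieces and left-out animals were alternatives. The 10 factors and the gene lists were chosen with earlier results of these data known. All 10 were named whatever their p; other Ets genes if called or above 1 CPM in every animal; list genes by smallest adjusted p, up to 4 a list, and further ones as examples chosen after their values were seen. The most similar gene was that with the smallest root-mean-square difference of centred log2 CPM (prior count 2). Some genes of the lists are counted but not reported by name here.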

Additional observations from a re-analysis of the deposited data

Results flagged for a closer look

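Ets2 was lower in piece 2 than in piece 1 in each of the 3 SB spleens, by log2 differences of -0.42, -0.29 and -0.16 in SB animals 1 to 3, and higher in piece 2 in each of the 3 control spleens, by 0.12, 0.15 and 0.15. The test of the difference itself, SB minus control, gave -0.43 on the log2 scale (SE 0.11, unadjusted p = 0.00182, adjusted p = 0.0711, edgeR quasi-likelihood test with the animal as a block), which did not pass the threshold. Position in the spleen is not given for the pieces of either genotype, and whether piece 1 of an SB spleen matches section A of a control spleen was not tested. Over the 20 sets of 6 libraries, 1 per factor and genotype, no single library lay far from the other 5. Both pieces of a spleen are in the same set, so this says nothing of a whole spleen that lies apart. Ets1 in SB animal 3, with 2090 and 2029 CPM in its pieces, was such a case.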

How the results depend on the processing

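The groups hold 3 animals each. Between SB and control, the number of factors called was 0, and it ranged from 0 to 3 with single animals left out: 2 without SB animal 1 (Etv6, Elf4), 3 without SB animal 2 (Ets2, Erg, Etv6), 2 without SB animal 3 (Ets1, Spi1) and 0 without any control. It was 2 with DESeq2 and 3 with limma-voom. Over all genes the count was 3178, with 554 to 6409 in the leave-one-out fits, 5546 with DESeq2 and 3989 with limma-voom. Of 130 alternative log2 changes, 16 changed sign, 12 passed the threshold and 102 did neither. Leaving out 1 animal gave log2 changes of -3.47 to 0.29 for Ets1, -0.29 to 0.50 for Fli1, -0.054 to 0.81 for Spi1, -0.23 to 0.36 for Elf1 and -0.30 to 0.053 for Elk3. With limma-voom Ets1 had -1.93 (adjusted p = 0.133), against -0.25 in edgeR. Other sign changes were those of Fli1 with piece 1 alone (-0.023) and with limma-voom (-0.29), of Spi1 with limma-voom (-0.0028), and of Elf1 without the filter (-0.00027), with piece 2 alone (-0.12) and with limma-voom (-0.13). The cause was not tested. For pieces, without the replicate block 0 factors were called over all animals and 0 in controls, against 4 and 1 with it, and the leave-one-out fits gave 0 to 4 and 0 to 1; wherever edgeR called 0 of these factors over all animals or in controls it called 0 of all genes too, against 1843 and 1481; within SB they gave 0 to 2, with 1 to 725 of all genes. The labels give no pairing of animals across genotypes, so none was fitted. With the longest transcript as length, 10 of 20 levels per kb moved by over 1 SD and Elf1 passed Fli1 in the order of both groups.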
